A study of Homo sapiens with 4 samples.

Results

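Aminoacyl-tRNA synthetases are the enzymes that load each amino acid onto its transfer RNA. The 36 genes described here were given as a fixed list of symbols, 20 for cytosolic enzymes (AARS to YARS, in the older style of naming) and 16 for mitochondrial enzymes (names ending in 2), out of 40205 symbols in the count table. All 36 were in the table and all 36 passed the filter on low counts, so that each was among the 16120 genes tested. The libraries were RNA-seq of A549, a human lung adenocarcinoma cell line, collected 24 h after Lipofectamine iMAX transfection in 6-well plates. In 2 libraries (NC-1 and NC-2) the small interfering RNA was a negative control, and in 2 (Knockdown-670 and Knockdown-732) it targeted the long non-coding RNA SBF2-AS1. The labels do not say what the numbers in the names of the knockdown libraries stand for, nor whether a group holds separate cultures. The p-values therefore measure only how these samples spread, and that spread may be technical.

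Each synthetase first activates its amino acid with ATP and then transfers it to the matching tRNA, and the charged tRNA is handed to an elongation factor for use at the ribosome. Cytosol and mitochondrion translate separately, and most amino acids have a nuclear gene for each compartment, while GARS and KARS supply both from a single gene. Several of the cytosolic enzymes sit in a multi-synthetase complex, and many of the cytosolic genes are textbook targets of ATF4, a transcription factor of the amino acid starvation response that binds a composite element in their promoters. WARS, itself among the ATF4 targets listed further on, is the member best known outside this programme, since interferon-gamma induces it.

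The libraries held 12149767 to 12938143 counts over 22025 to 22419 genes with a count. The targeted RNA, SBF2-AS1, was counted 57 and 79 times in NC-1 and NC-2 but only 15 and 18 times in the knockdown libraries. The epithelial markers KRT8, KRT18, KRT19, EPCAM and CDH1 were all detected, with a summed level of 3847 and 3944 CPM (counts per 1000000 counts of the TMM-scaled library) in the controls and 2647 and 2493 CPM in the knockdown libraries. KRT18 and KRT8 made up most of that sum. KRT19 rose by 1.06 on the log2 scale (edgeR adjusted p = 3.45e-09), KRT18, KRT8 and EPCAM fell by 0.86, 0.40 and 0.56, and CDH1 stood at 0.11 and did not pass. The alveolar and airway markers NKX2-1, SFTPA1, SFTPB, SFTPC, SCGB1A1 and FOXJ1 had 0 to 3 counts in every library, so the lung identity of the line is not visible in them. PTPRC, CD3E, PECAM1, VWF and HBB, which mark blood and endothelial cells, likewise had 0 to 3 counts. CD14, COL1A1 and COL3A1, the other genes of that list, had 9 to 156 counts, and the 3 together held 19.2 to 21.1 CPM in every library. The synthetases themselves had 98 to 13511 counts per library.

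The ATF4 composite element was the most frequent of 5 motifs searched in the promoters of the cytosolic genes. RefSeq promoter windows of GRCh38.p14 (250 bases before to 50 after the annotated start) were matched for 30 of the 36 genes; DARS, LARS, VARS, YARS, AARS2 and VARS2 had no entry. The letters TGATGNAA, on either strand, were in 6 of 16 cytosolic windows (37.5%) and in 1 of 14 mitochondrial windows, that of YARS2 (7.14%), against 3.62% of 35116 windows of all genes. The 6 cytosolic matches are shown because these are the genes whose transcripts are followed as a group further on. Each line gives 30 bases in the direction of transcription, with the match in capitals.
AARS: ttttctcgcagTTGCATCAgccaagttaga
CARS: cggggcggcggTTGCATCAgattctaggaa
IARS: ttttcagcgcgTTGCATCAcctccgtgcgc
MARS: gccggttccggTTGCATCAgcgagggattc
NARS: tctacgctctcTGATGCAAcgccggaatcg
TARS: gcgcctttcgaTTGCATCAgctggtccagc

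These stretches lie at chr16:70289675-70289704 (- strand) for AARS, chr11:3057407-3057436 (- strand) for CARS, chr9:92293692-92293721 (- strand) for IARS, chr12:57488053-57488082 (+ strand) for MARS, chr18:57621804-57621833 (- strand) for NARS and chr5:33440956-33440985 (+ strand) for TARS. In 5 of the 6 the match began within 15 bases of the annotated start, and in AARS it began 187 bases before it. A palindromic match was counted once. The other motifs searched were the interferon-stimulated response element, TTCNNNGAA (the gamma-activated site), CACGTG (the E-box) and the NRF1 motif, on either strand, which were in 0, 2, 1 and 3 of 16 cytosolic windows and in 1, 2, 3 and 3 of 14 mitochondrial ones, against 3.57%, 7.66%, 7.26% and 5.78% of all windows. A match describes letters in a window around a single annotated start and is not evidence of binding.

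In the control cells the cytosolic transcripts were the more abundant set. Per kilobase of the principal transcript in GENCODE release 29, AARS, the alanine enzyme, stood highest at 294 ± 9.43 CPM per kilobase (SD, n = 2), followed by the methionine enzyme MARS at 161 ± 7.85 and the isoleucine enzyme IARS at 133 ± 7.13. The tryptophan enzyme of the mitochondrion, WARS2, stood lowest at 3.22 ± 0.283, below AARS2 at 3.76 ± 0.585, and these last levels lay within their spread of each other. The median control level was 62.8 CPM per kilobase over the cytosolic genes and 10.5 over the mitochondrial ones. The mitochondrial isoleucine enzyme IARS2, at 58.9 ± 4.50, was the most abundant of its set and lay among the cytosolic genes. Of 13 amino acids with a gene of each kind under matching symbols, the cytosolic gene had the higher level per kilobase in 12, by a median ratio of 5.79. The exception was histidine, where the ratio of HARS to HARS2 was 0.974 and the levels lay within their spread (SD 1.71 and 4.33 CPM per kilobase). The plot of levels by library shows every synthetase in CPM not scaled by length.

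**Figure D1:**
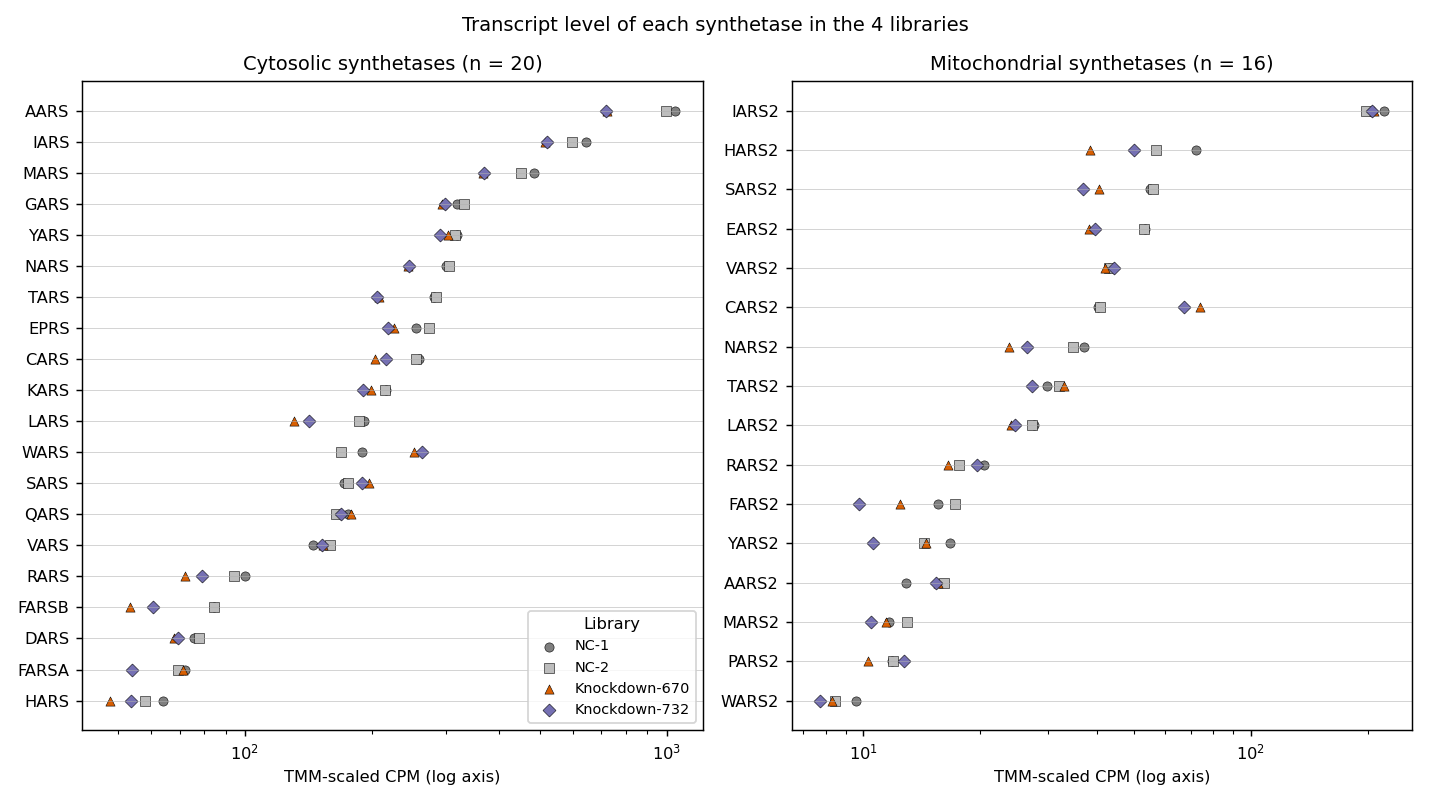
TMM-scaled CPM (log axis) of the 20 cytosolic (left) and 16 mitochondrial (right) synthetases, with 1 symbol per library: circles and squares for NC-1 and NC-2, triangles and diamonds for Knockdown-670 and Knockdown-732. Both knockdown symbols sit to the left of both control symbols in 15 of 20 cytosolic rows and in 8 of 16 mitochondrial rows. Of all genes tested, 36.2% had both knockdown libraries below both controls. In the rows of WARS and CARS2 both knockdown symbols sit clearly to the right.

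After SBF2-AS1 siRNA, 11 of the 20 cytosolic synthetases fell, 1 rose and 8 did not pass an adjusted p of 0.05 (edgeR quasi-likelihood test, Benjamini-Hochberg over all 16120 genes). Those that fell were FARSB, AARS, LARS, TARS, RARS, MARS, NARS, CARS, IARS, HARS and EPRS, and the one that rose was WARS. Over all genes tested, 46.3% were called, 22.8% lower and 23.5% higher. Among the 4182 genes averaging 50 CPM or more, where all 20 cytosolic genes lie (a limit chosen after the values were seen), 28.4% were lower and 35.2% higher. The median log2 fold change of the cytosolic genes was -0.25 and was the same, -0.25, for each knockdown library alone; over all genes tested it was -0.002. In 15 of the 20 both knockdown libraries lay below both controls, which 36.2% of all genes did, and in 2 (WARS and the serine enzyme SARS) both lay above, as 36.4% of all genes did (72.6% in either direction). Summed over the set, the level was 5387 and 5259 CPM in the controls and 4501 CPM in each knockdown library, 15.4% lower, and 12.1% lower when AARS, which made up 19.2% of the control sum, was left out. These are bulk RNA measurements scaled to library size, so fewer transcripts per cell and more RNA from other genes cannot be told apart.

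The changes were modest in size and several depended on how they were tested. Against a minimum change of 1.2-fold in place of no change (edgeR's glmTreat, which called 13.8% of all genes lower and 15.2% higher), 4 cytosolic genes passed as lower, FARSB, AARS, LARS and TARS, and WARS passed as higher. These 5 kept their call under all 13 alternative settings.

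FARSB, the beta subunit of the phenylalanine enzyme, had the lowest fitted value of the cytosolic set. Its level was 84.4 and 84.6 CPM in NC-1 and NC-2 and 53.4 and 60.7 CPM in Knockdown-670 and Knockdown-732. The groups did not overlap, and FARSB fell by 0.57 on the log2 scale (SE 0.08, edgeR adjusted p = 2.09e-05), or by 32.4%. That rank was not stable: under the correction for GC content and length FARSB stood at -0.28 and AARS at -0.63, and without Knockdown-670 they stood at -0.48 and -0.51. FARSA, the alpha subunit of the same tetramer, was measured at 72.1 and 69.2 CPM in the controls and 71.2 and 54.0 CPM in the knockdown. For FARSA the Knockdown-670 library lay between the controls and only Knockdown-732 was low, so that the gene did not pass (log2 -0.18, SE 0.11, edgeR adjusted p = 0.209), although it did without Knockdown-670 (log2 -0.39, edgeR adjusted p = 0.0018).

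AARS, the most abundant synthetase transcript, was at 1045 and 998 CPM in the controls and at 722 and 718 CPM in the knockdown, with no overlap. It fell by 0.50 on the log2 scale (SE 0.07, edgeR adjusted p = 6.32e-06), or 29.5%. LARS, the leucine enzyme, which also serves as a leucine sensor upstream of mTORC1, was at 191.5 and 186 CPM in the controls and 130.4 and 142 CPM in the knockdown. It fell by 0.47 on the log2 scale (SE 0.07, edgeR adjusted p = 2.56e-05), and again the groups stood apart. TARS, which charges threonine, went from 281 and 284 CPM to 208 and 205 CPM. The replicates of TARS differed by little beside the gap between the groups, and it fell by 0.45 on the log2 scale (SE 0.07, edgeR adjusted p = 1.98e-05).

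RARS and MARS, the arginine and methionine enzymes of the multi-synthetase complex, completed the 6 largest falls of the uncorrected fit. RARS was at 100.1 and 94.1 CPM in the controls and 72.3 and 79.1 CPM in the knockdown (log2 -0.36, SE 0.08, edgeR adjusted p = 0.00104). MARS was at 484 and 452 CPM in the controls and 366 and 369 CPM in the knockdown (log2 -0.35, SE 0.07, edgeR adjusted p = 0.000328). In both genes the lower control lay above the higher knockdown library. The remaining 5 falls were smaller: NARS (asparagine) had a log2 fold change of -0.31, CARS (cysteine) of -0.29, IARS (isoleucine) of -0.26, HARS (histidine) of -0.26 and EPRS, the fused glutamate and proline enzyme, of -0.25. HARS did not pass without NC-1, without Knockdown-670 or in DESeq2 (adjusted p = 0.171, 0.193 and 0.107). When GC content and length were corrected for, EPRS stood at -0.12 and RARS at -0.07, and neither passed (edgeR adjusted p = 0.142 and 0.443), while VARS at -0.36, YARS at -0.38 and FARSA at -0.33 did pass as lower, which made 12 cytosolic genes lower in all.

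WARS, the tryptophan enzyme, moved the other way. It was at 189.7 and 169 CPM in the controls and at 252 and 263 CPM in the knockdown libraries, both above both controls. It rose by 0.52 on the log2 scale (SE 0.07, edgeR adjusted p = 1.12e-05), or by 43.5%, and the change ran from 0.36 to 0.60 over 13 alternative settings, past the threshold in each. The tryptophan enzyme of the mitochondrion, WARS2, was scarce, at 9.59 and 8.46 CPM in the controls and 8.32 and 7.72 CPM in the knockdown, and did not pass (log2 -0.17, SE 0.17, edgeR adjusted p = 0.442). The RefSeq window of WARS held 0 matches to TGATGNAA, to TTCNNNGAA or to the interferon-stimulated response element. That window, at 100376278 to 100376577, lies inside the outer GENCODE end of WARS at 100376805. Bases before this outer end were not searched. The 250 bases before the RefSeq start, chr14:100376328-100376577 on the - strand of GRCh38.p14, are given because WARS was the cytosolic gene that rose.
WARS: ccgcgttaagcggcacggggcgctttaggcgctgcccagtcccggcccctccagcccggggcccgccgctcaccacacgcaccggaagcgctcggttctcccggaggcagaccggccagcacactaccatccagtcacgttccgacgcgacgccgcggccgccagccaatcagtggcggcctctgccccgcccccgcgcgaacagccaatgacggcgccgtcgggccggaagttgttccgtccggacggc

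The 8 cytosolic genes that did not pass were SARS (log2 0.15, SE 0.07), QARS (0.03, SE 0.07), VARS (0.01, SE 0.07), YARS (-0.09, SE 0.07), GARS (-0.14, SE 0.07), KARS (-0.14, SE 0.07), DARS (-0.16, SE 0.08) and FARSA. In SARS both knockdown libraries, at 196 and 189 CPM, lay above both controls, at 172 and 175 CPM, with an edgeR adjusted p of 0.0778. DARS, GARS and KARS did pass as lower when the counts were scaled by library size only (log2 -0.23, -0.20 and -0.21). KARS and GARS are the genes that serve both compartments, so their transcripts also stand for mitochondrial lysine and glycine charging.

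**Figure D2:**
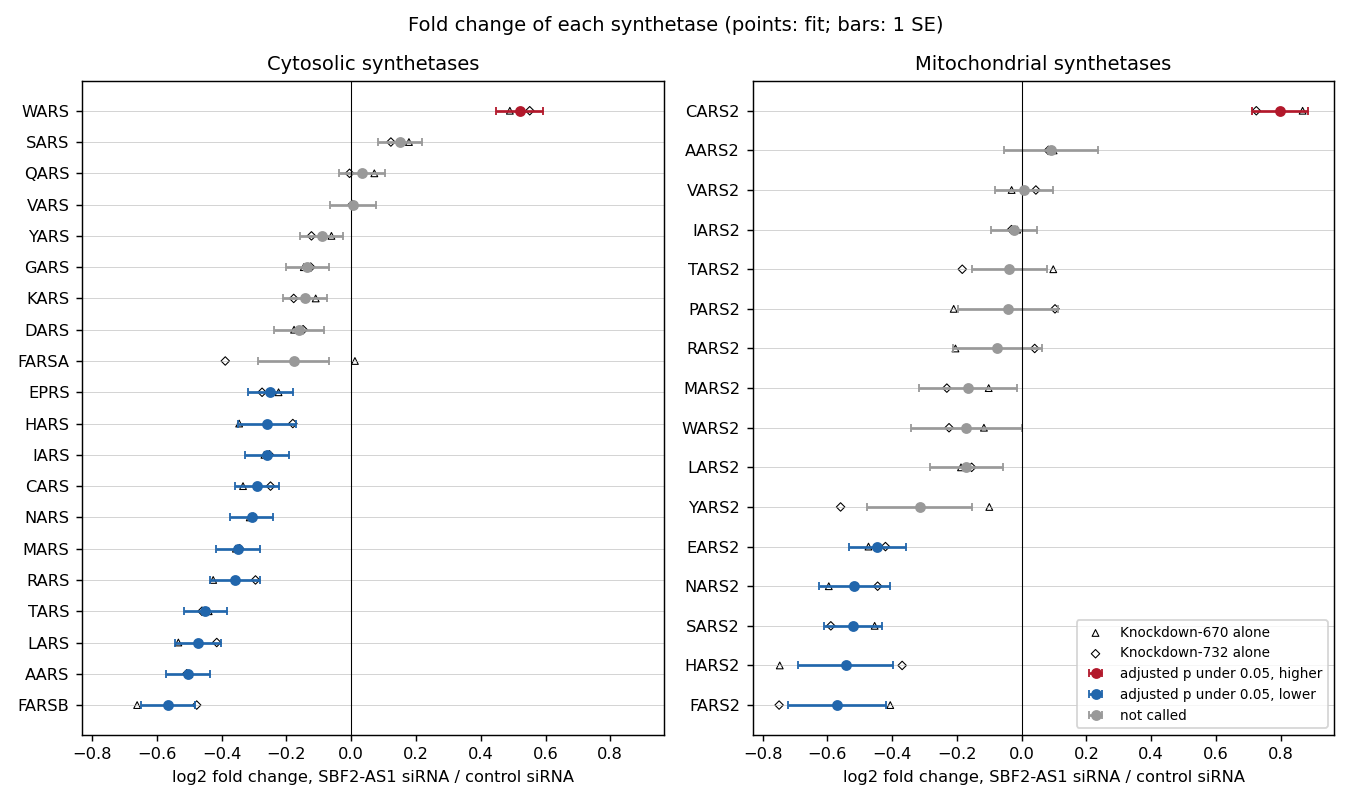
Log2 fold change of SBF2-AS1 siRNA over control siRNA for each cytosolic (left) and mitochondrial (right) synthetase; filled points with bars of 1 SE come from the fit of all 4 libraries (blue lower, red higher, grey not called), open triangles and diamonds from Knockdown-670 and Knockdown-732 alone against the controls. The cytosolic points run from -0.57 (FARSB) to 0.52 (WARS) and the mitochondrial points from -0.57 (FARS2) to 0.80 (CARS2).

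The same genes were also counted by complex, by structure and by promoter, each count to be read beside the 22.8% lower and 23.5% higher of all genes tested (28.4% and 35.2% of genes averaging 50 CPM or more). The 8 enzymes of the multi-synthetase complex (EPRS, IARS, LARS, MARS, QARS, RARS, KARS and DARS) had 5 lower and 0 higher with a median log2 fold change of -0.25, and the 12 that are free of it had 6 lower and 1 higher with a median of -0.22. Sorted by the fold of the catalytic domain and with both compartments together, class II had 9 of 17 lower and 0 higher, and class I had 6 of 18 lower and 2 higher (WARS and CARS2); EPRS, which joins both folds, was left out. The 12 cytosolic genes recalled from the literature as ATF4 targets were AARS, CARS, EPRS, GARS, IARS, LARS, MARS, NARS, SARS, TARS, WARS and YARS. Of these, 8 were lower and 1, WARS, was higher (median -0.28). The other 8 cytosolic genes had 3 lower and 0 higher (median -0.17). The 6 genes whose promoter matches are printed above, AARS, CARS, IARS, MARS, NARS and TARS, were all called lower, with log2 fold changes of -0.50 to -0.26 and a median of -0.33. Of the 10 cytosolic genes whose window lacked the letters, 4 were lower (EPRS, FARSB, HARS and RARS), 1 was higher (WARS) and 5 did not pass. The differences between these groupings were not tested.

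Of the 16 mitochondrial synthetases 5 fell, 1 rose and 10 did not pass, beside the 22.8% lower and 23.5% higher of all genes tested. FARS2, HARS2, SARS2, NARS2 and EARS2 fell and CARS2 rose. The median log2 fold change was -0.17, or -0.15 for Knockdown-670 alone and -0.20 for Knockdown-732 alone. The summed level was 678 and 640.4 CPM in the controls and 611 and 607 CPM in the knockdown, 7.61% lower. Most of these genes are scarcer than the cytosolic ones, with a median control level of 29.1 CPM against 202 CPM, and the median SE of their log2 fold changes was 0.13 against 0.07, so that smaller changes could pass among the cytosolic genes. Whether the sets changed by different amounts was not tested.

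CARS2, the mitochondrial cysteine enzyme, which also makes cysteine persulfides, had the largest fitted change of the 36 genes before the correction for GC content and length. It was at 40.4 and 40.8 CPM in the controls and at 74.1 and 67.1 CPM in the knockdown, a rise of 0.80 on the log2 scale (SE 0.09, edgeR adjusted p = 5.92e-07), or 1.74-fold. The controls were nearly equal and both knockdown libraries were far above them. Under the GC and length correction the rise of CARS2 was 0.49 on the log2 scale and still passed, but SARS2, at -0.73, FARS2, AARS and others then stood farther from 0.

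SARS2, which charges serine in the mitochondrion, was at 55.0 and 55.9 CPM in the controls and 40.5 and 36.9 CPM in the knockdown, without overlap. It fell by 0.52 on the log2 scale (SE 0.09, edgeR adjusted p = 0.000117). NARS2, the asparagine enzyme, was at 37.1 and 34.8 CPM against 23.8 and 26.4 CPM, which is -0.52 on the log2 scale (SE 0.11, edgeR adjusted p = 0.000799). EARS2, the glutamate enzyme, charges both glutamate and glutamine tRNA in mitochondria, the glutamine being made afterwards on the tRNA. It was at 53.2 and 53.1 CPM in the controls and 38.3 and 39.7 CPM in the knockdown, which is -0.45 on the log2 scale (SE 0.09, edgeR adjusted p = 0.000428). SARS2, NARS2 and EARS2 kept their calls under all 13 alternatives.

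FARS2 and HARS2 fell by more in the fit but with a wider spread. FARS2, the mitochondrial phenylalanine enzyme, which works as a single chain, was at 15.6 and 17.2 CPM in the controls and 12.4 and 9.77 CPM in the knockdown (log2 -0.57, SE 0.15, edgeR adjusted p = 0.00489), and it did not pass without Knockdown-732 (adjusted p = 0.0575). HARS2 was at 72.1 and 56.8 CPM in the controls and 38.4 and 49.9 CPM in the knockdown (log2 -0.54, SE 0.15, edgeR adjusted p = 0.0155). In HARS2 the libraries of a group differed by more than in the other called members, and the gap between the nearest libraries of the groups was small.

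The 10 mitochondrial genes that did not pass were IARS2, VARS2, TARS2, LARS2, RARS2, YARS2, AARS2, MARS2, PARS2 and WARS2, with log2 fold changes from -0.32 (YARS2) to 0.09 (AARS2). YARS2, the tyrosine enzyme, had 14.5 CPM in Knockdown-670, within the controls at 16.8 and 14.4, and 10.6 CPM in Knockdown-732. Without Knockdown-670 it passed as lower (log2 -0.56, edgeR adjusted p = 0.00939). IARS2, abundant enough for a small SE, stood at -0.02 (SE 0.07). Under the GC and length correction LARS2 and VARS2 passed as lower, at -0.32 and -0.35, which made 7 mitochondrial genes lower.

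The GC and length correction moved several other called values, without ending their calls. CARS stood at -0.52 and MARS at -0.58 under it, while FARSB stood at -0.28, NARS at -0.15 and NARS2 at -0.30. VARS and VARS2, which were at 0.01 and 0.007 without the correction, therefore changed both sign and call.

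Cytosolic and mitochondrial enzymes for the same amino acid often did not receive the same call. These calls are to be read beside the 22.8% lower and 23.5% higher of all genes tested. The median SE was also wider in the mitochondrial set, 0.13 against 0.07, so a mitochondrial partner could pass less easily. Of the 13 pairs, 2 had both genes lower (HARS with HARS2, NARS with NARS2), 6 had only the cytosolic gene lower (alanine, isoleucine, leucine, methionine, arginine and threonine), 1 had only the mitochondrial gene lower (SARS2), 1 had only the cytosolic gene higher (WARS), 2 had neither called (valine and tyrosine), and in 1 the calls were opposite. The opposite pair was cysteine, where CARS fell by 0.29 while CARS2 rose by 0.80 on the log2 scale. In the serine pair SARS stood at 0.15 and SARS2 at -0.52, and in the alanine pair AARS stood at -0.50 and AARS2 at 0.09. The 13 pairs are those whose symbols differ only by the ending 2, so phenylalanine, glutamate and proline are not among them. For phenylalanine, FARSB and FARS2 were both lower, at -0.57 each, while FARSA at -0.18 did not pass. EPRS, at -0.25, has separate mitochondrial counterparts for its amino acids, EARS2 at -0.45 and PARS2 at -0.04. Of these, EPRS and EARS2 were both lower and PARS2 did not pass. A gene that passed beside a partner that did not is no test of a difference between them, and none was made.

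**Figure D3:**
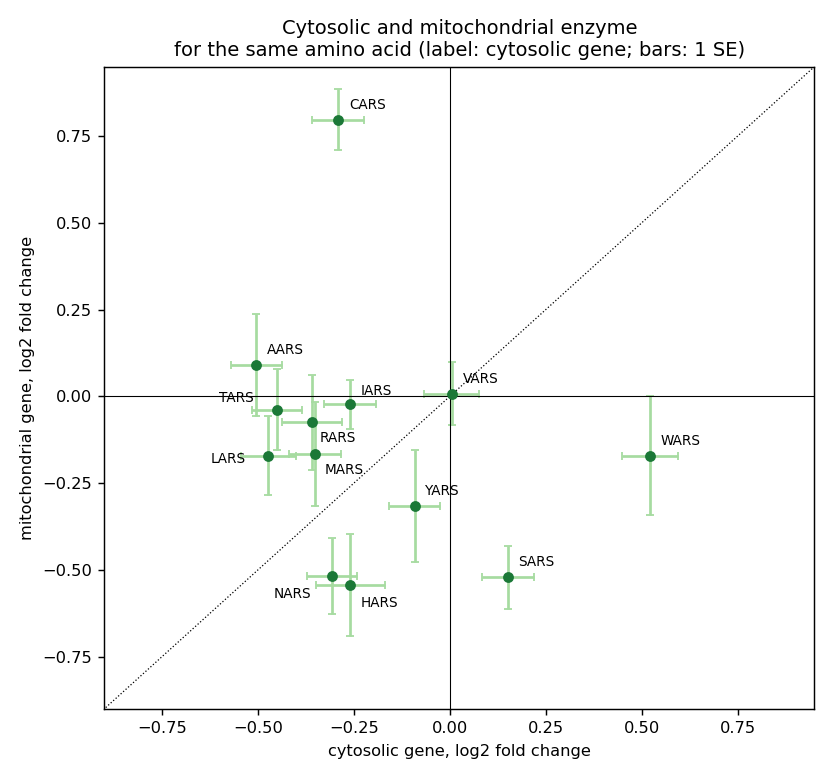
Log2 fold change (SBF2-AS1 siRNA over control siRNA) of the mitochondrial gene against that of the cytosolic gene for 13 amino acids, labelled by the cytosolic gene, with bars of 1 SE; the dotted line marks equal change. Cysteine (CARS) lies in the upper left, farthest of all pairs from the line, and alanine (AARS, at -0.50 and 0.09) lies in the upper left too. Tryptophan (WARS) and serine (SARS) lie to the lower right, and valine (VARS) sits next to the origin.

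Several synthetase genes share their start region or exons with a neighbour, which bears on the counts because no source used here says whether strand was used in counting. In GENCODE release 29 on GRCh38 (coordinates differ from the build of the count table), HARS (chromosome 5, 140673904 to 140691862, - strand) and HARS2 (140691426 to 140699318, + strand) start 436 bases apart and share 437 exonic bases, and both were lower. The 3' part of MARS (chromosome 12, 57475445 to 57517569, + strand) shares 355 exonic bases with DDIT3, the stress factor CHOP, on the other strand, and DDIT3 was lower too (log2 -0.54, edgeR adjusted p = 0.000267). WARS (chromosome 14, 100333788 to 100376805, - strand) overlaps WDR25 head to head by 287 exonic bases. WDR25 was far scarcer, at 7.48 CPM in the controls against 10.1 CPM in the knockdown (log2 0.42, edgeR adjusted p = 0.0492), where WARS went from a mean of 179 to 257 CPM. Other bases are shared on the same strand, where strand would not separate the reads. VARS2 shares 1858 exonic bases with GTF2H4, which was higher (log2 0.33, edgeR adjusted p = 0.0368). HARS2 shares 152 with ZMAT2, which was lower (log2 -0.28, edgeR adjusted p = 0.0118). SARS2 shares 1492 with AC011455.2, which is absent from the count table. The part of such shared bases in any result was not tested.

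Other head-to-head neighbours gave mixed results, and no difference between a synthetase and its neighbour was tested. By its outer GENCODE end, CARS2 (chromosome 13, 110641412 to 110713603, - strand) starts 867 bases from ING1, a chromatin reader, and shares 326 exonic bases with it. The RefSeq promoter window of CARS2 lies inside these ends, at 110706466 to 110706765. ING1 was at 12.8 CPM in the controls and 8.96 CPM in the knockdown (log2 -0.51, edgeR adjusted p = 0.037) while CARS2 rose. RARS2 starts 64 bases from ORC3, a subunit of the origin recognition complex, and RARS2 stood at -0.08 (edgeR adjusted p = 0.685) where ORC3 fell by 0.87 (edgeR adjusted p = 1.79e-05). SARS2 shares 349 exonic bases with MRPS12, a mitochondrial ribosomal protein, which stood at -0.23 (edgeR adjusted p = 0.0537). AARS and the helicase gene DDX19B start 120 bases apart, and DDX19B stood at -0.06 (edgeR adjusted p = 0.64) beside the fall of AARS. LYRM4 stood at -0.19 beside FARS2 at -0.57, TERF2IP at -0.12 beside KARS at -0.14, and UBFD1 at 0.12 beside EARS2 at -0.45, and none of these 3 neighbours passed.

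The partners of the synthetases were read from lists of textbook genes, again beside 22.8% lower and 23.5% higher among all genes tested. The 3 scaffold proteins of the multi-synthetase complex all fell: EEF1E1 by 0.73, AIMP1 by 0.44 and AIMP2 by 0.39 on the log2 scale (edgeR adjusted p = 0.000661, 0.000638 and 0.00225). Of 13 tested genes of tRNA maturation, editing and export, 6 fell and 1 rose (median -0.18). Among those that fell were TRMT6, a subunit of a tRNA methyltransferase (-0.99), RPP30 of RNase P (-0.82), the CCA-adding enzyme TRNT1 (-0.55) and the tRNA exporter XPOT (-0.52). TRMT61A, also in this list, did not pass (log2 -0.14, edgeR adjusted p = 0.377). QRSL1, a subunit of the amidotransferase that completes mitochondrial glutamine charging after EARS2, fell by 0.68, and the other 3 genes of that list, GATC, PET112 and MTFMT, did not pass. Of 10 mitochondrial translation factors 4 fell and 0 rose (median -0.26): the elongation factors GFM1 (-0.61) and TSFM (-0.44), the initiation factor MTIF2 (-0.46) and the recycling factor MRRF (-0.59).

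Among cytosolic translation elongation factors, EEF1A1 and EEF1A2 carry charged tRNA to the ribosome. Of 7 genes of this list 3 rose and 1 fell (median 0.06), where 35.2% of genes averaging 50 CPM or more were called higher and 28.4% lower: the translocase EEF2 rose by 0.53, EEF1A2 by 0.49 and EEF1A1 by 0.27 on the log2 scale, and EIF5A fell by 0.28. EEF2 went from 2376 ± 51.0 to 3423 ± 113.5 CPM (SD, n = 2 each). Whether these factors differed from the synthetases was not tested.

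ATF4 targets other than synthetases fell in 15 of 24 cases and rose in 2, with a median log2 fold change of -0.36, beside 22.8% lower and 23.5% higher among all genes tested. The 4 of smallest p were the folate enzyme MTHFD2 (-0.76), the dimerisation partner CEBPG (-0.68), the pseudokinase TRIB3 (-0.62) and the serine synthesis enzyme PSAT1 (-0.65). ATF4 itself, named after its value was seen, was at 515 CPM in the controls and 526 CPM in the knockdown (log2 0.03, edgeR adjusted p = 0.732); ATF4 is regulated largely at translation, which RNA counts do not show. Amino acid transporters fell in 6 of 12 cases and rose in 1 (median -0.21), with SLC7A2, which carries arginine and lysine, at -0.88, SLC1A4 at -0.95, SLC38A1 at -0.48 and the glutamine carrier SLC1A5 at -0.35. Among 14 genes of amino acid sensing and the eIF2 kinases 6 rose and 2 fell (median 0.13). The kinase EIF2AK2 (PKR), itself interferon-induced, rose by 1.08 and the mTORC1-linked GTPase RRAGD by 1.18, the GCN2 activator GCN1L1 rose by 0.46, and the heme-regulated kinase EIF2AK1 fell by 0.45 on the log2 scale.

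Genes that textbooks list with WARS as interferon-gamma targets were higher where they could be tested. Of 14 listed, 10 had enough counts to be tested and all 10 of these rose, beside 23.5% higher among all genes tested. Genes silent in the controls pass such a filter only through the knockdown libraries, so this count describes the list and supports nothing. HLA-B rose by 1.78, GBP1 by 2.47, TAP1 by 1.10 and GBP2 by 1.32 on the log2 scale. CIITA, CXCL9, CXCL10 and CXCL11 had 0 to 11 counts per library and were not tested. Over the 10 the log2 fold changes ran from 0.38 (PSMB8) to 2.47 (GBP1), with IRF1 at 0.57, and WARS at 0.52 lay near the low end of that range. Whether WARS belongs with them was not tested.

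**Figure D4:**
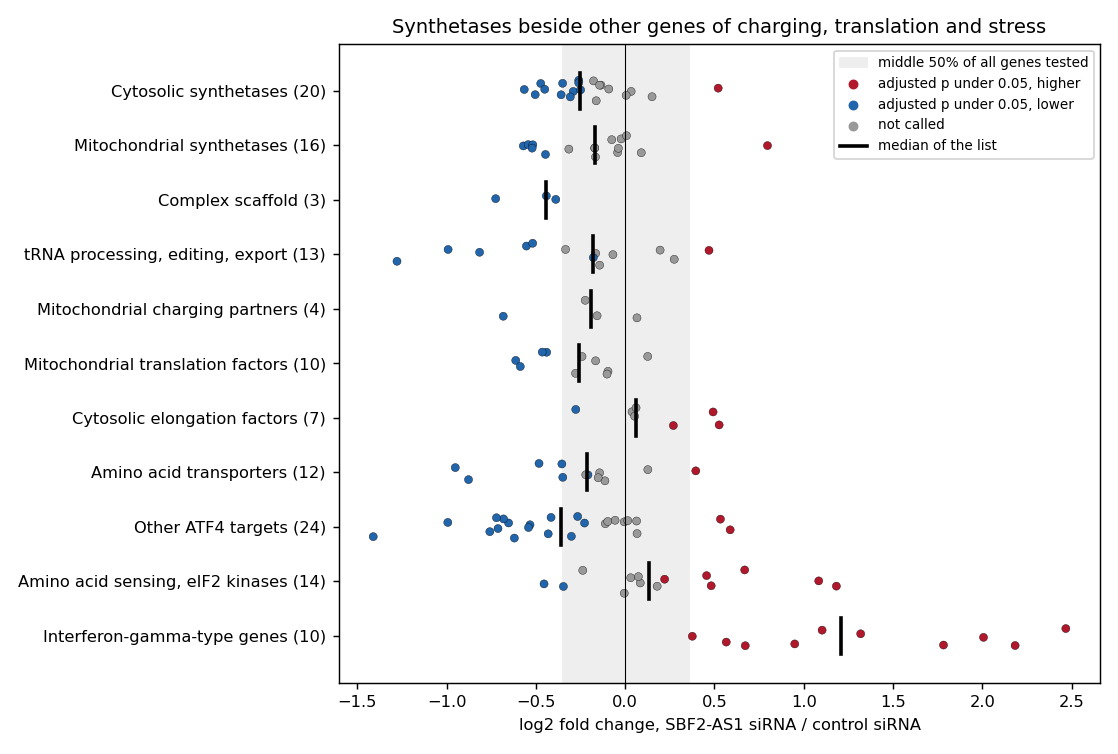
Log2 fold change (SBF2-AS1 siRNA over control siRNA) of each tested gene in 11 lists, with the number of genes in parentheses; blue and red points passed an adjusted p of 0.05 as lower and higher, grey did not, black bars are medians, and the grey band spans the middle 50% of all genes tested. The medians of both synthetase sets (-0.25 and -0.17) and of the other ATF4 targets (-0.36) lie left of 0, and that of the cytosolic elongation factors (0.06) lies right of it.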

How the data were processed

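The authors deposited raw counts per gene symbol for the 4 libraries. Per the labels' protocols, RNA was extracted with Trizol and sequenced on the Ion Proton; per the submitters' processing notes the build was GRCh37. Aligner, counter, annotation and strand use: not given in the sources used here.

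All genes were fitted together in edgeR 4.0.16 (R 4.3.3) with filterByExpr, TMM scaling and robust quasi-likelihood tests, adjusted by Benjamini-Hochberg at 0.05; SE was taken from the fold change and the F statistic (log2 value over the square root of F). The coefficient of biological variation was 6.64%. A fit with 3 groups gave the values of single knockdown libraries. The script was tested on simulated data. Alternatives were other scalings and filters, each library left out, DESeq2 1.42.0, limma-voom 3.58.1, glmTreat, and gene-wise offsets for GC content and length (mgcv 1.9.3; 91.2% of tested genes and all 36 synthetases had both). Genes given in every library were WARS and, per set, up to 6 called genes with the largest rise and fall; other lists gave up to 4 called genes of smallest p. Members and lists were chosen with earlier results of these data known. Neighbours and TARSL2 were named after their values were seen. GENCODE and RefSeq were joined by symbol.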

Additional observations from a re-analysis of the deposited data

How the results depend on the processing

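Over 13 alternatives and 36 genes, 421 of 468 values kept direction and side of the threshold; 14 lost a call and 8 gained one in the same direction, and 25 changed sign, among them VARS and VARS2 under the GC and length correction, which gained a call as well. Of the 18 called genes 9 passed under every alternative, 5 cytosolic and 4 mitochondrial. With library size only the cytosolic median was -0.32 and the mitochondrial -0.23, and QARS, VARS and VARS2 stood at -0.030, -0.058 and -0.055. Against 1.2-fold, 4 cytosolic genes were lower in place of 11, and HARS2 did not pass. With one library left out the cytosolic median ran from -0.26 to -0.20 and the mitochondrial from -0.21 to -0.13 (each nearest 0 without NC-1), with 10 to 11 and 4 to 6 genes lower; the cause was not tested, and the lone library of a group was assumed to vary like the other group. Sign changes among genes that were not called ran, with libraries left out, from -0.065 to 0.070 in VARS, -0.064 to 0.25 in AARS2, -0.10 to 0.052 in IARS2, -0.22 to 0.038 in RARS2, -0.019 to 0.078 in QARS, -0.19 to 0.086 in TARS2, -0.042 to 0.041 in VARS2, -0.22 to 0.10 in PARS2 and -0.39 to 0.00031 in FARSA. With the GC and length correction DARS stood at 0.10, QARS at -0.14, VARS at -0.36, AARS2 at -0.14, IARS2 at 0.14, RARS2 at 0.24, VARS2 at -0.35 and WARS2 at 0.059. No paired analysis was possible because the groups share no replicate numbers. With 98 counts at the lowest, counting error limits the scarce mitochondrial genes most.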

Other observations

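TARSL2, a cytosolic relative of TARS outside the list of 36, was scarce at 5.35 CPM in the controls and rose to 8.91 CPM (log2 0.73, SE 0.18, edgeR adjusted p = 0.00307), where TARS fell by 0.45 on the log2 scale. The gene was picked after its values were seen.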
